A study of Drosophila montana and Drosophila virilis with 10 samples.

Results

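The difference in cold acclimation response between 2 related fly species, Drosophila montana and Drosophila virilis, was measured gene by gene as the contrast (acclimated minus control in D. montana) minus (acclimated minus control in D. virilis). All 10 libraries of the series enter this contrast. They fall into 4 groups: 3 acclimated and 3 control libraries of D. montana strain 175OJ8 from Oulanka, Finland, and 2 acclimated and 2 control libraries of D. virilis strain TOY3F9 from Toyama, Japan. Each library is mRNA of whole flies, 10 flies to a pool in D. montana and 20 in D. virilis. A species thus stands here for a single strain. Neither the sex of the flies nor the temperature and length of acclimation is given in the sources used here. Stated age was 24 to 26 days after eclosion in acclimated and 21 to 23 days in control D. montana. In D. virilis it was 29 to 30 days in acclimated and 27 to 28 days in control flies. Stated age rises in even steps from library to library in the order of the samples, from 21 to 30 days. Whether these are true ages cannot be told from the labels. Acclimation and stated age cannot be told apart within a species, and species cannot be told apart from strain, pool size or stated age. The labels do not tell whether pools of a group were drawn from separate cultures. The p-values therefore measure variation between pools that could be technical only.

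Cold acclimation is the gain in cold tolerance that insects acquire after a period at low but harmless temperatures. In drosophilids it is known to involve the lipid make-up of membranes, sugars and polyols that protect cells, chaperone proteins and the ion balance of the body fluid. D. montana is a northern species whose adults overwinter in reproductive diapause, and D. virilis, the species that gives the group its name, is the less cold-tolerant of the pair. The contrast asks for which genes the response to acclimation differs between the species, in size or in direction. It does not show that a gene fails to respond in the other species.

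The D. montana libraries held 1518027 to 2235850 gene reads each, and those of D. virilis 650517 to 1316804. The log2 levels of 2 libraries of the same species correlated across genes at r = 0.948 to 0.977 within D. montana, at 0.891 to 0.929 within D. virilis, and libraries of different species at 0.681 to 0.761. With every library thinned to the same number of gene reads, 12283 to 12572 identifiers were detected in D. montana. In D. virilis the thinned numbers were 9621 and 10418 in acclimated and 11774 and 10229 in control flies. Multiply aligned reads were 83.0% ± 0.44 of the reads in acclimated and 76.6% ± 1.4 in control D. virilis (SD, n = 2 each). The shares in D. montana were 21.5% ± 2.8 in acclimated and 19.0% ± 0.080 in control flies (SD, n = 3 each). The part of these library differences in the results was not tested. The files give FlyBase identifiers without names, and 0 of 15342 could be matched to the reference table, so genes are given by identifier and without a function.

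Of 9811 genes tested, 22 (0.224%) responded differently in the 2 species (edgeR's quasi-likelihood test of the interaction, Benjamini-Hochberg adjusted p under 0.05). The change with acclimation was more positive in D. montana for 14 of them (0.143% of tested genes) and in D. virilis for 8 (0.0815%). Sorted by the species with the larger response, 2 genes rose and 3 fell in D. montana, and 5 rose and 12 fell in D. virilis. In these whole-fly pools, fewer cells of a type and less RNA per cell cannot be told apart. The larger response lay in D. virilis for 17 of the 22 genes (77.3%), and this was so for 69.5% of all tested genes, whose responses had a median size of 0.21 log2 units in D. montana and 0.39 in D. virilis. Such sizes include the error of the estimate, and the median standard error was 0.25 in D. montana and 0.35 in D. virilis. Whether D. virilis responds more strongly across genes was not tested. The 2 responses had opposite signs for 12 of the 22 genes (54.5%), against 42.5% of all tested genes. Picking genes for a large difference favours opposite signs. Among the 1117 genes with an unadjusted edgeR p under 0.05 for the difference, the share was 70.1%. In 1 gene both of the opposite changes passed the test.

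The response within each species was read from the same fit of 4 groups. In that fit 109 genes (1.11%) changed in D. montana, 74 upward (0.754%) and 35 downward (0.357%). The fit called 239 genes (2.44%) in D. virilis, 131 upward (1.34%) and 108 downward (1.1%). All 4 groups share 1 estimate of spread per gene in this fit. The coefficient of variation between pools was 25.1% with D. virilis fitted alone, 15.3% with D. montana alone and 18.2% in the shared fit, so D. virilis responses are tested in the shared fit against a smaller spread than in its own libraries. Fitted alone, D. montana had 156 of 9315 genes called (1.67%) and D. virilis 24 of 7692 (0.312%). In the shared fit, leaving out control 1 or 2 or any 1 acclimated library of D. montana gave 45 to 71 calls in D. montana. Calls in D. virilis numbered 87, 106 and 136 without control 1, control 2 or acclimated 1 of D. virilis, 614 without its acclimated 2, and 143 and 154 without control 2 or acclimated 3 of D. montana. Of the 22 genes, 5 changed in D. montana in either fit, while 18 changed in D. virilis in the shared fit and 9 in D. virilis alone. Where a named gene's call in D. virilis differs between these fits, both adjusted p-values are given.

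**Figure D1:**
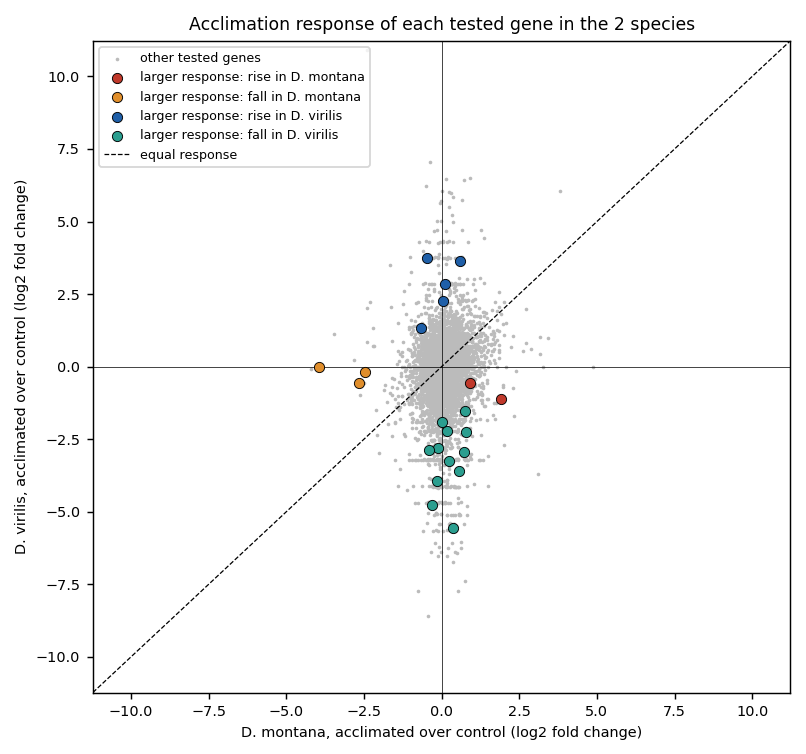
Each point is 1 of the 9811 tested genes, with the log2 fold change of acclimated over control flies in D. montana on the x axis and in D. virilis on the y axis, both from the fit of 4 groups. The 22 called genes are coloured by the species and direction of their larger response. The 17 whose larger response is in D. virilis lie along the vertical axis, and grey points are genes whose difference did not pass.

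The gene with opposite changes was FBgn0197717. It stood at 75.6, 73.2 and 55.1 CPM (counts scaled to gene reads per library with TMM factors) in acclimated D. montana, against 13.1, 27.1 and 14.96 CPM in control D. montana. In D. virilis it stood at 95.7 and 71.5 CPM in acclimated flies, against 168 and 193 CPM in controls. Neither species' libraries overlapped, which held for 8.61% of all tested genes. FBgn0197717 rose 3.73-fold in D. montana (a log2 change of 1.90, SE 0.25, with an edgeR adjusted p of 0.0010) and fell 2.18-fold in D. virilis (a log2 change of −1.12, SE 0.28, with an edgeR adjusted p of 0.045). With D. virilis fitted alone the fall had an edgeR adjusted p of 0.089. The difference of 3.02 log2 units (95% interval 2.23 to 3.82, edgeR adjusted p = 0.0024) passed in all 23 alternative analyses that test the difference against 0. Acclimated flies of the 2 species had mean levels of 68.0 and 83.6 CPM, and control flies of 18.4 and 180 CPM.

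FBgn0210632 was the other gene whose rise in D. montana was the larger response. Acclimated D. montana had 105, 104 and 76.0 CPM, against 43.5, 48.1 and 58.9 CPM in controls, again without overlap. It rose 1.89-fold (a log2 change of 0.92, SE 0.18, with an edgeR adjusted p of 0.018). In D. virilis it had 161 and 160 CPM in acclimated and 218 and 253 CPM in control flies, a log2 fold change of −0.56 that did not pass (SE 0.22, edgeR adjusted p = 0.18). Its difference of 1.47 log2 units (95% interval 0.87 to 2.07, edgeR adjusted p = 0.036) passed in 11 of 23 alternatives. The call was lost in 7 of the 10 fits that left out 1 library, with edgeR adjusted p of 0.064 to 0.149. Those were the fits without control 1 or 2 or acclimated 1 or 2 of D. montana, and without control 1 or 2 or acclimated 1 of D. virilis. The limma-voom analyses and thinned libraries lost it as well (adjusted p = 0.064 to 0.178). So did a fit with a replicate block within species (edgeR adjusted p = 0.137).

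Among the 22 genes, 3 fell in D. montana without a called change in D. virilis. In each of the 3 the acclimated libraries of D. montana all lay below its controls. Libraries of D. montana were apart in either direction for 18.3% of all tested genes. FBgn0209824 had 5.44, 1.56 and 4.17 CPM in acclimated D. montana, on 3 to 10 reads per library, against 33.0, 54.1 and 88.8 CPM in controls. The D. virilis libraries had 171 and 134 CPM in acclimated and 136 and 169 CPM in control flies, so they interleave. The gene thus fell 15.5-fold in D. montana (a log2 change of −3.95, SE 0.40, with an edgeR adjusted p of 7.6e-05), and its log2 fold change in D. virilis was −0.01 (SE 0.34). The difference was −3.94 (95% interval −5.12 to −2.82, edgeR adjusted p = 0.0024). It passed in 22 of 23 alternatives, the exception being libraries thinned to the smallest, where the difference was −2.92 and the edgeR adjusted p 0.053.

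FBgn0202540 had 75.6, 60.7 and 73.5 CPM in acclimated D. montana, against 322, 406 and 605 CPM in control D. montana. In D. virilis it had 42.4 and 58.1 CPM in acclimated and 80.3 and 70.2 CPM in control flies. Both species' control libraries lay above their acclimated ones, and the fall in D. montana was 6.35-fold (a log2 change of −2.67, SE 0.22, with an edgeR adjusted p of 1.1e-05). The log2 fold change of −0.56 in D. virilis did not pass (SE 0.31, edgeR adjusted p = 0.36). The difference was −2.11 (95% interval −2.91 to −1.30, edgeR adjusted p = 0.024) and passed in 16 of 23 alternatives. Leaving out acclimated 2 or 3 of D. montana, or control 1 or 2 of D. virilis, gave edgeR adjusted p of 0.066, 0.059, 0.064 and 0.114. The 3 limma-voom analyses lost the call too (adjusted p = 0.069 to 0.129).

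The third of these genes was FBgn0210321, given here after its values were seen. Acclimated D. montana had 51.1, 35.3 and 41.3 CPM, against 163, 181 and 365 CPM in controls, control 3 standing highest. The D. virilis libraries had 120.0 and 122 CPM in acclimated and 119 and 156 CPM in control flies. Its 5.56-fold fall in D. montana (a log2 change of −2.48, SE 0.27, with an edgeR adjusted p of 0.00016) stood beside a log2 fold change of −0.19 in D. virilis (SE 0.33). The difference of −2.29 (95% interval −3.19 to −1.39, edgeR adjusted p = 0.029) passed in 16 of 23 alternatives. It was lost without acclimated 2 or 3 of D. montana (edgeR adjusted p = 0.093 and 0.080) and without control 1 or 2 of D. virilis (edgeR adjusted p = 0.110 and 0.067). For FBgn0210321 the 3 limma-voom analyses gave adjusted p of 0.054 to 0.114.

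Rises in D. virilis made up 5 of the called differences. None of these genes passed in D. montana, where their log2 fold changes ran from −0.66 to 0.60. In all 5 the acclimated D. virilis libraries lay above the controls. Libraries of D. virilis were apart in either direction for 42.7% of all tested genes. Acclimated D. virilis also stood above acclimated D. montana in all 5, while control D. virilis stood above control D. montana in 1. Picking genes for a rise in D. virilis favours such levels, and the matching shares over all tested genes were not computed. Levels of the 2 species are on 1 scale here but depend on how well each species' reads match the annotation, so they were not tested against each other.

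FBgn0211115 had 262 and 262 CPM in acclimated D. virilis, against 18.5 and 22.6 CPM in control D. virilis. Acclimated D. montana had 168, 78.4 and 92.3 CPM, against 51.8, 85.4 and 85.4 CPM in control D. montana. The D. montana groups thus overlapped, and in D. virilis the rise was 12.6-fold (a log2 change of 3.65, SE 0.40, with an edgeR adjusted p of 0.00015). The D. montana change of 0.60 on the log2 scale did not pass (SE 0.25, edgeR adjusted p = 0.43). The difference was −3.05 (95% interval −4.06 to −2.05, edgeR adjusted p = 0.0063). It passed in 19 of 23 alternatives and was lost without control 1 or control 2 of D. virilis (edgeR adjusted p = 0.0507 and 0.0509). Both limma-voom and limma-voom with weights per species also lost it (adjusted p = 0.067 and 0.123).

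FBgn0206907 had 154 and 50.9 CPM in acclimated D. virilis, against 4.63 and 9.51 CPM in controls, which is 3 and 8 reads. D. montana had 32.6, 37.9 and 40.1 CPM in acclimated and 62.3, 38.5 and 52.1 CPM in control flies. The acclimated D. virilis libraries differ by more than their control level, and the 13.5-fold rise (a log2 change of 3.76, SE 0.56, with an edgeR adjusted p of 0.0026) had an edgeR adjusted p of 0.064 with D. virilis alone. Its difference of −4.23 (95% interval −5.60 to −2.88, edgeR adjusted p = 0.0058) passed in every fit that left out 1 library, at −3.29 without acclimated 1, −4.85 without acclimated 2 and −4.90 without control 2 of D. virilis. It did not pass in the 3 limma-voom analyses, where the adjusted p was up to 0.143.

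FBgn0208655, chosen after its values were seen for its small adjusted p, had 228 and 259 CPM in acclimated D. virilis, against 46.3 and 22.6 CPM in control D. virilis. D. montana had 209, 218 and 152 CPM in acclimated and 147, 175 and 219 CPM in control flies, with full overlap. Control D. virilis thus stood apart from the other 3 groups, whose means were 193, 180 and 243 CPM. The rise in D. virilis was 7.25-fold (a log2 change of 2.86, SE 0.32, with an edgeR adjusted p of 0.00015; 0.023 with D. virilis alone). The difference was −2.76 (95% interval −3.57 to −1.97, edgeR adjusted p = 0.0024) and passed in all 23 alternatives, with an adjusted p of at most 0.032.

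The 2 remaining rises, also named after their values were seen, were FBgn0198000 and FBgn0205465. FBgn0198000 had 130 and 102 CPM in acclimated and 17.0 and 29.7 CPM in control D. virilis, beside 17.4, 26.0 and 25.0 CPM in acclimated and 18.3, 24.6 and 23.7 CPM in control D. montana. The 8 other libraries lay at 17.0 to 29.7 CPM, and acclimated D. virilis stood apart. Its rise was 4.81-fold (log2 2.27, SE 0.33, edgeR adjusted p = 0.0021), beside a log2 fold change of 0.05 in D. montana. The difference of −2.22 (95% interval −3.10 to −1.35, edgeR adjusted p = 0.029) passed in 12 of 23 alternatives. Without control 1 of D. virilis, control 2 or 3 of D. montana, or any 1 acclimated D. montana library, the edgeR adjusted p was 0.056 to 0.116. The call was also lost in the limma-voom analyses and after thinning (adjusted p = 0.069 to 0.116). With a replicate block within species the edgeR adjusted p was 0.060. FBgn0205465 had 115 and 112 CPM in acclimated and 46.3 and 44.0 CPM in control D. virilis. In D. montana it had 32.6, 31.7 and 22.5 CPM in acclimated and 42.9, 44.5 and 49.2 CPM in control flies. Control flies of both species thus had near-equal levels, 45.6 and 45.2 CPM, and the acclimated libraries lay below them in D. montana and above them in D. virilis. The rise in D. virilis passed (a log2 change of 1.33, SE 0.26, with an edgeR adjusted p of 0.013; 0.086 with D. virilis alone), whereas the log2 fold change of −0.66 in D. montana did not (SE 0.20, edgeR adjusted p = 0.17). The difference of −1.99 (95% interval −2.68 to −1.31, edgeR adjusted p = 0.0091) passed in 21 of 23 alternatives. It was lost without control 2 of D. virilis (edgeR adjusted p = 0.063) and with libraries thinned to the smallest (edgeR adjusted p = 0.116).

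Falls in D. virilis were the most numerous class, with 12 genes. All 12 passed in the shared fit and 6 of them in D. virilis alone, with a median log2 fold change of −2.90 (range −5.56 to −1.51). In D. montana 0 of the 12 passed, and their log2 fold changes had a median of 0.20 (range −0.39 to 0.77). Control D. virilis stood above control D. montana in all 12, and acclimated D. virilis stood above acclimated D. montana in 5. The 12 were picked for a fall from the control D. virilis level, which favours genes high in that group. The matching shares over all tested genes were not computed, so these counts are no result about the species' levels.

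FBgn0206770, named after its values were seen, had the highest level in control D. virilis among the 22. Acclimated D. virilis had 578 and 282 CPM, against 3008 and 3018 CPM in controls. D. montana had 54.9, 41.5 and 44.3 CPM in acclimated and 43.5, 55.9 and 53.6 CPM in control flies. The D. montana groups overlap at a level far below both D. virilis groups. It fell 7.03-fold in D. virilis (a log2 change of −2.81, SE 0.28, with an edgeR adjusted p of 0.00013; 0.023 with D. virilis alone), and the difference was 2.69 (95% interval 1.93 to 3.46, edgeR adjusted p = 0.0024). FBgn0201648, chosen in the same way, had 27.9 and 42.0 CPM in acclimated and 175 and 159 CPM in control D. virilis. D. montana lay between, with 70.2, 64.9 and 67.6 CPM in acclimated and 66.0, 48.7 and 63.7 CPM in control flies. The difference was 2.41 (95% interval 1.76 to 3.07, edgeR adjusted p = 0.0024). Both genes passed in all 23 alternatives, with an adjusted p of at most 0.0098.

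FBgn0210647 and FBgn0206925 had the largest falls in D. virilis among called genes. FBgn0210647 had 4.85 and 2.68 CPM in acclimated D. virilis, on 4 and 3 reads, against 75.7 and 268 CPM in controls. D. montana had 19.0, 41.0 and 38.4 CPM in acclimated and 29.8, 23.4 and 23.2 CPM in control flies. Acclimated D. virilis is thus at about the level that 3 reads give, while its controls differ 3.54-fold from each other. The fall was 47.1-fold (a log2 change of −5.56, SE 0.66, with an edgeR adjusted p of 0.00023; 0.024 with D. virilis alone). The difference of 5.93 (95% interval 4.32 to 7.61) was 4.71 without control 2 of D. virilis and 6.54 without control 1 (edgeR adjusted p = 0.0079 and 2.0e-05). FBgn0206925 had 2.42 and 11.6 CPM in acclimated and 125 and 293 CPM in control D. virilis. Its D. montana libraries had 11.4, 7.27 and 10.9 CPM in acclimated and 11.5, 15.03 and 10.6 CPM in control flies. Here acclimated D. virilis reached the level of D. montana, and control 2 was again the higher control. The difference of 4.47 (95% interval 3.10 to 5.86, edgeR adjusted p = 0.0040) was 3.70 without that library and 3.82 without acclimated 1 of D. virilis, but 6.08 without acclimated 2 (edgeR adjusted p = 0.028, 0.011 and 0.0025). Neither gene passed in the 3 limma-voom analyses, where the adjusted p was 0.083 to 0.176 for FBgn0210647 and 0.066 to 0.103 for FBgn0206925.

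FBgn0206911, named after its values were seen because its controls stand far apart, had 96.9 and 41.1 CPM in acclimated and 511 and 1574 CPM in control D. virilis. Its D. montana libraries had 75.1, 92.4 and 83.1 CPM in acclimated and 102, 73.3 and 100.4 CPM in control flies. Both controls nonetheless lay above every other library, and the difference of 3.81 (95% interval 2.66 to 4.96, edgeR adjusted p = 0.0033) was 2.76 without control 2 (edgeR adjusted p = 0.0079). It was 4.40 without control 1 and 4.49 without acclimated 1 of D. virilis. It passed in all 23 alternatives.

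The other 7 genes that fell in D. virilis had group means of 3.29 to 491 CPM in acclimated and 44.7 to 1821 CPM in control D. virilis. Means in D. montana were 8.17 to 226 CPM in acclimated and 4.94 to 223 CPM in control flies. Their falls in D. virilis ran from 2.86-fold to 12.2-fold and their differences from 1.92 to 4.18 log2 units (edgeR adjusted p = 0.0063 to 0.049). With D. virilis alone 1 of the 7 falls was called, and the other 6 had an edgeR adjusted p of 0.055 to 0.086. The differences passed in 10 to 22 of the 23 alternatives, and 2 of the 7 passed in every fit that left out 1 library. Leaving out control 1, 2 or 3 of D. montana lost 3, 5 and 2 of the 7 calls, and leaving out its acclimated 1, 2 or 3 lost 4, 5 and 5. Leaving out control 1, control 2 or acclimated 1 of D. virilis lost 1, 5 and 2, and leaving out its acclimated 2 lost 0. The weakest support in reads was 1 read in 1 acclimated library. In each of the 12 genes the acclimated D. virilis libraries lay below the controls, where 42.7% of all tested genes had D. virilis libraries apart in either direction. Control 2 stood above control 1 in 9 of the 12, with a median ratio of 1.49 (range 0.87 to 3.54), against 47.9% of all tested genes. Without control 2 of D. virilis, 17 genes were called, of which 12 belong to the 22.

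**Figure D2:**
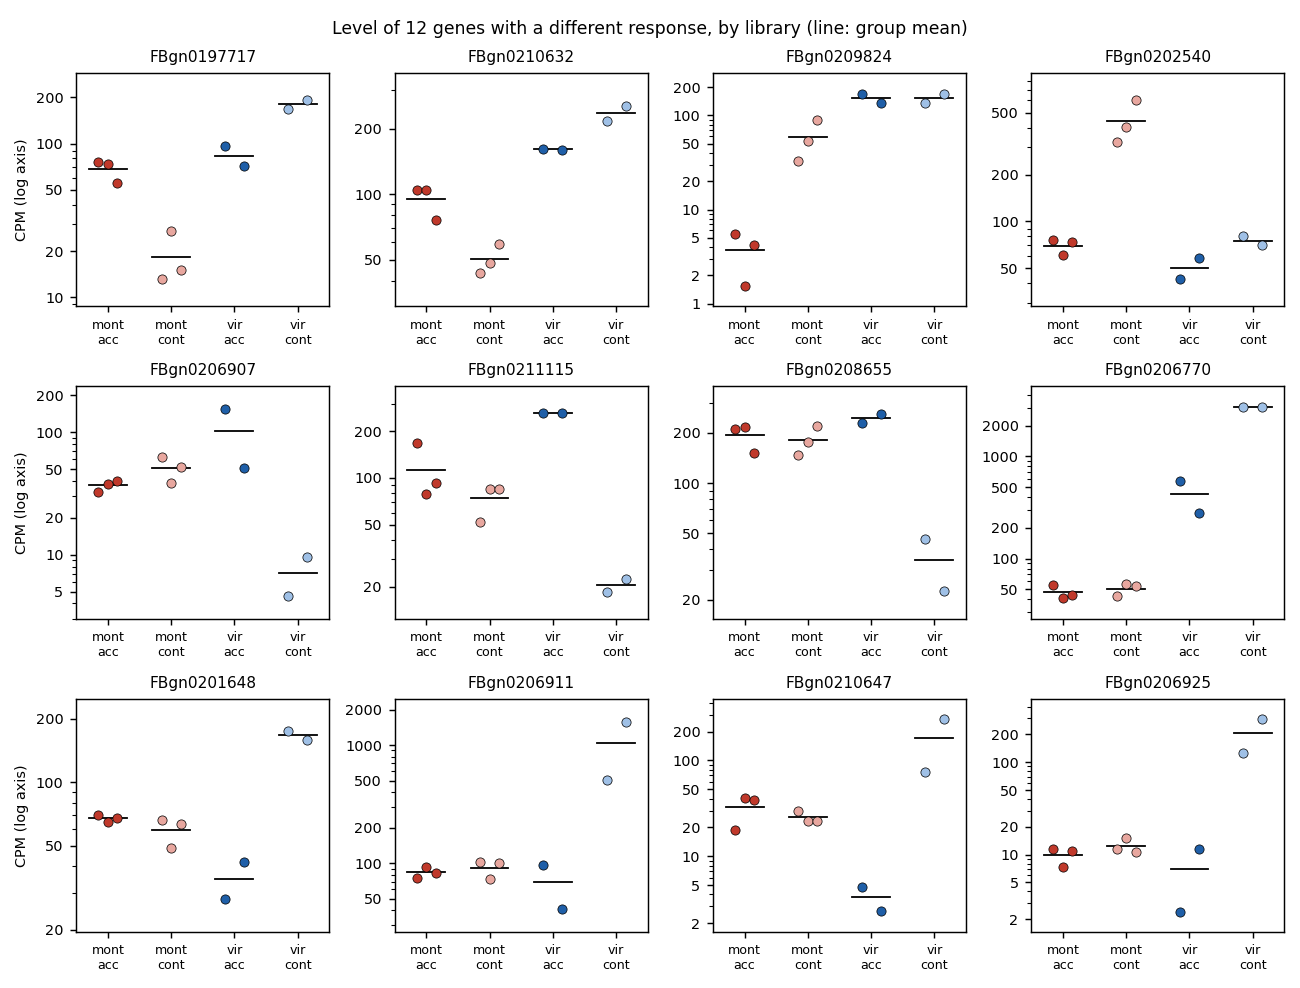
Levels of 12 genes with a called difference in response are shown in CPM on a log axis, 1 point per library and a line at each group mean. The columns of each panel are acclimated and control D. montana (mont, n = 3 each) and acclimated and control D. virilis (vir, n = 2 each). FBgn0197717 is high in acclimated D. montana and low in acclimated D. virilis relative to the controls, and FBgn0206911 and FBgn0210647 show control D. virilis libraries more than 3-fold apart.

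With tested genes divided by abundance over all libraries into 3 equal tiers, 12 of the called genes were in the most abundant tier (0.367% of its genes), 7 in the middle tier (0.214%) and 3 in the least abundant tier (0.0917%). Acclimated and control libraries were fully apart in D. montana for 8 of the 22 genes (18.3% of all tested genes) and in D. virilis for 20 (42.7% of all tested genes). For 16 of the 22 (72.7%) the levels of the 2 species lay closer together in acclimated than in control flies, against 41.5% of all tested genes. Those closer after acclimation included 10 of the 12 genes that fell in D. virilis and 1 of the 3 that fell in D. montana. The 41.5% was computed with 0.5 CPM added to each level, the count of 16 without. The 22 were picked on a change of this same species ratio, so their share does not show that the species converge. Among the 1117 genes with an unadjusted p under 0.05 for the difference (11.4% of those tested), the share closer after acclimation was 35.3%. At looser thresholds, 46 genes (0.469%) had an edgeR adjusted p under 0.10 for the difference and 325 (3.31%) one under 0.25. Of the 46, 30 had their more positive change in D. montana and 16 in D. virilis, 30 had opposite signs, and D. virilis had the larger response in 38.

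How far each called difference rests on single libraries and on the method was followed over 23 alternatives, 10 of which leave out 1 library. All 22 differences kept their sign in every one of the 23. The alternatives reuse the counts that the calls were drawn from, so a kept sign is no independent support. The threshold was passed in all 23 by 5 genes, FBgn0197717, FBgn0201648, FBgn0206770, FBgn0206911 and FBgn0208655, and in all 10 left-out fits by 11 genes. The number of called genes was 14 without acclimated 2 of D. montana, 43 without acclimated 1 of D. virilis and 194 without acclimated 2 of D. virilis. The last of these fits rests on acclimated 1, the D. virilis library with the fewest detected identifiers at equal depth, and it called all 22. Tested against a difference of 1 log2 unit in place of 0, 9 genes passed. Allowing each species its own spread gave 35 genes with separate fits per species, among them all 22, and 9 genes with limma-voom weights per species, all among the 22. Of the called differences, 63.6% were more positive in D. montana with TMM scaling, and 77.1% when the 20 most abundant genes were left out of the library sizes. Without control 1 of D. montana 45.5% were, and without control 1 of D. virilis 81.8%.

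**Figure D3:**
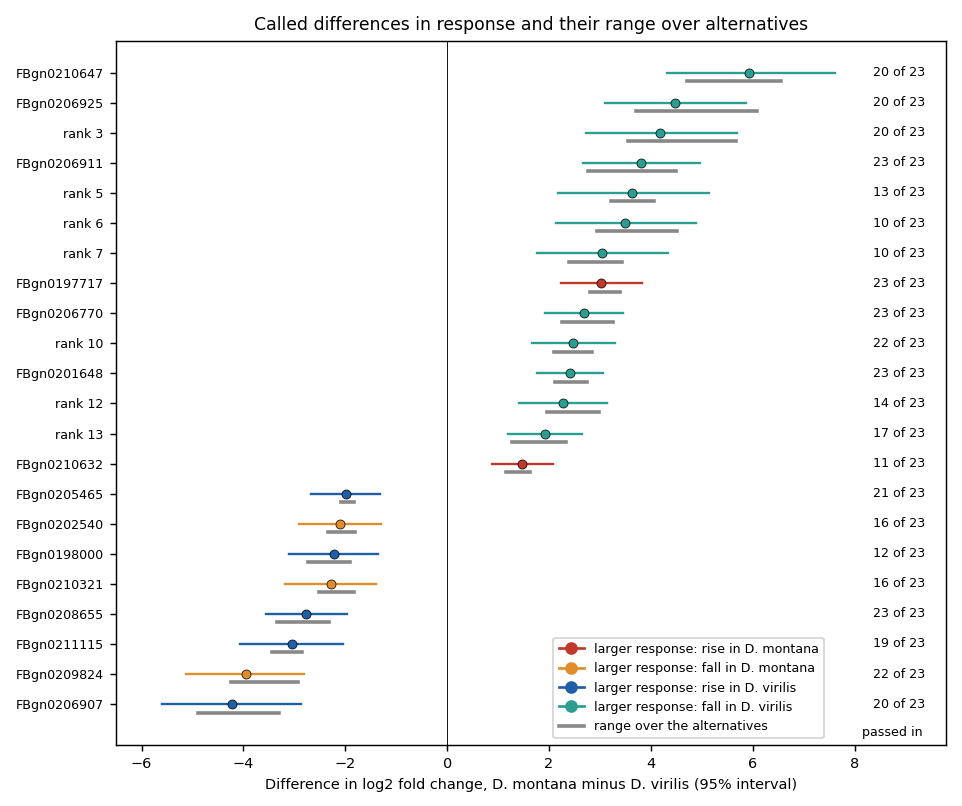
Each row is 1 of the 22 called genes, with the log2 response of D. montana minus that of D. virilis on the x axis, its 95% interval as a line and its range over 23 alternatives as a grey bar. Genes not described singly are given by their rank from the highest difference. None of the grey bars crosses 0, and the number of alternatives in which the gene passed, at the right, runs from 10 to 23. All alternatives reuse the counts that the calls were drawn from.

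Genes that changed in both species in the shared fit show the opposite case. Of the 9811 tested genes, 109 were called in D. montana, 239 in D. virilis and 22 in both. These 22 are another set than the 22 called differences and share only FBgn0197717 with them. They were 13 genes that rose in both, 8 that fell in both and FBgn0197717, the 1 gene with opposite changes. Among the 21 with the same direction, the rises had log2 fold changes of 0.83 to 2.001 for D. montana and 0.94 to 2.34 for D. virilis. The falls ran from −2.12 to −1.34 in D. montana and from −3.52 to −1.38 in D. virilis. All 21 were also called with D. montana alone and 4 with D. virilis alone. In none of the 21 did the difference pass the test, which does not show that the responses were equal: the 95% interval lay within 1 log2 unit either side of 0 for 6 of them.

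FBgn0207689, chosen after its values were seen, is among those 6. It had 309, 429 and 322 CPM in acclimated and 140, 168 and 145 CPM in control D. montana. D. virilis had 489.5 and 562 CPM in acclimated and 239 and 244 CPM in control flies. No libraries overlapped within a species, and it rose 2.34-fold in D. montana and 2.18-fold in D. virilis (edgeR adjusted p = 0.0012 and 0.011; 0.074 with D. virilis alone). The difference was 0.11 log2 units (95% interval −0.45 to 0.67), which bounds it within 1. FBgn0198817, a fall chosen in the same way, had 25.0, 21.8 and 15.4 CPM in acclimated and 39.3, 63.1 and 60.3 CPM in control D. montana, and 67.9 and 77.7 CPM in acclimated and 176 and 215 CPM in control D. virilis. The difference was 0.03 log2 units (95% interval −0.72 to 0.77). FBgn0203534, also named after its values were seen, fell in both species by different fitted amounts. It had 20.7, 12.98 and 12.9 CPM in acclimated and 33.0, 39.1 and 44.9 CPM in control D. montana, and 1.21 and 5.36 CPM in acclimated and 34.0 and 48.8 CPM in control D. virilis. Control flies of the species thus had like levels, and acclimated D. virilis, on 1 and 6 reads, the lowest. The fall was 2.52-fold in D. montana and 11.5-fold in D. virilis (edgeR adjusted p = 0.028 and 0.0029; 0.075 with D. virilis alone), and the difference of 2.19 did not pass (95% interval 0.86 to 3.57 before adjustment, edgeR adjusted p = 0.19). That difference was 1.56 without acclimated 1 of D. virilis and 3.67 without acclimated 2.

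**Figure D4:**
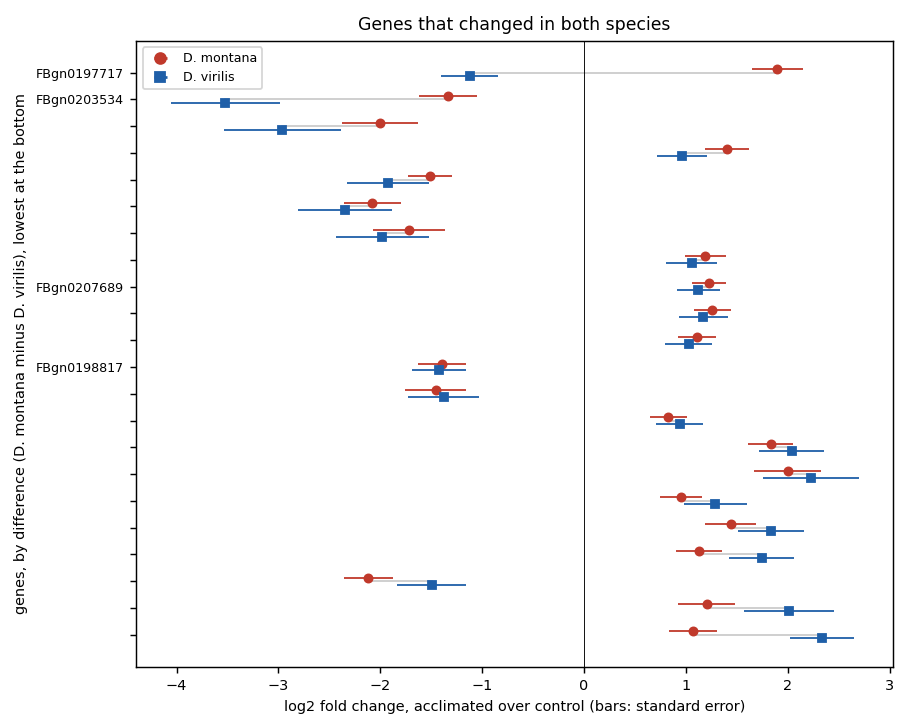
The 22 genes called in both species are shown by their log2 fold change of acclimated over control flies in D. montana (circles) and D. virilis (squares), with standard errors. Rows are ordered by the difference, and genes described singly are labelled. Both symbols lie on the same side of 0 for 21 genes and on opposite sides for FBgn0197717.

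Over all 9811 genes, the 95% interval of the difference lay within 1 log2 unit either side of 0 for 2477 (25.2%). These were 1854 genes of the most abundant tier (56.7%), 622 of the middle tier (19.0%) and 1 of the least abundant tier (0.0306%). Without control 1, control 2 or acclimated 2 of D. virilis the number was 1587, 1513 and 1621. At the other end, 1259 genes (12.8%) had an interval wider than 4 log2 units, and a further 307 (3.13%) had 0 reads in every library of at least 1 group, for which no interval was computed. The median standard error of the response was 0.25 log2 units in D. montana and 0.35 in D. virilis, and that of the difference 0.43.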

How the data were processed

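The authors deposited unnormalised counts of reads on each FlyBase identifier, made with HTSeq according to the submitters' processing notes. The sources used here do not name the aligner, build, annotation, counting mode or use of strand, so genes that overlap or have near-identical copies are uncertain. The 5 counter lines were dropped. They held mainly reads on no feature (53.1 to 56.6% in D. montana, 8.86 to 14.9% in D. virilis) and reads with several alignments (18.4 to 23.8% and 75.6 to 83.4%). Groups came from the sample titles. Counts were fitted with edgeR 4.0.16 (limma 3.58.1, R 4.3.3): TMM scaling over all 10 libraries, the default expression filter by group (minimum count 10, minimum total 15), 1 mean per group, quasi-likelihood F-tests of the interaction and of each species' response, and Benjamini-Hochberg adjustment over all 9811 tested genes, with genes called at an adjusted p under 0.05. Levels are CPM over TMM-scaled library sizes. Standard errors are the unshrunken log2 value over the square root of F, and 95% intervals use the fit's degrees of freedom. The level that a count of 0 allows (3 counts, counting error only) was 1.34 to 1.98 CPM for D. montana libraries and 2.28 to 4.61 CPM for those of D. virilis.

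Alternatives changed the scaling, filter, test (DESeq2 1.42.0, limma-voom), depth (thinning to 650517 gene reads) or libraries. The shared fit was run on simulated counts with 1 spread per gene for all groups and differences only in acclimated D. montana. That run cannot check calls that rest on D. virilis or on a spread that differs between the species. For identifiers without names, the rule took per species the 2 largest rises and 2 largest falls among called differences whose libraries did not overlap in that species and whose larger response was there. It gave FBgn0197717, FBgn0210632, FBgn0209824, FBgn0202540, FBgn0206907, FBgn0211115, FBgn0210647 and FBgn0206925. Every other named gene was chosen after its values were seen. The genes, rules and tests were chosen with earlier results of these data known. Gene lists could not be matched to identifiers and were not tested. No sequences are printed, since no file used here pairs these identifiers with one.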

Additional observations from a re-analysis of the deposited data

Results flagged for a closer look

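A difference in response between the species by the interaction test was found for 15 of the named genes (edgeR, adjusted p under 0.05). In log2 units, D. montana minus D. virilis, it was 3.02 for FBgn0197717, 1.47 for FBgn0210632, 5.93 for FBgn0210647, 4.47 for FBgn0206925, 3.81 for FBgn0206911, 2.69 for FBgn0206770 and 2.41 for FBgn0201648. It was −3.94 for FBgn0209824, −2.11 for FBgn0202540, −2.29 for FBgn0210321, −4.23 for FBgn0206907, −3.05 for FBgn0211115, −2.76 for FBgn0208655, −2.22 for FBgn0198000 and −1.99 for FBgn0205465. Outside the gene counts, multiply aligned reads took a larger share in acclimated flies, by 2.52 points over controls for D. montana and by 6.49 points for D. virilis (21.5% and 19.0%, 83.0% and 76.6%). Acclimated 2 of D. montana, at 18.4%, lay below all 3 D. montana controls (18.9 to 19.1%), so the D. montana increase rests on 2 of 3 libraries. Groups of 2 or 3 libraries were too small for a search for single outlying libraries.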

How the results depend on the processing

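The number of genes called for the difference in response was 22 of 9811 tested. Tested genes numbered 14741 with no expression filter, 13740 with a filter of 1 CPM in 2 libraries and 8223 after thinning. They numbered 7443 for the separate fits per species and 9642 to 10596 with 1 library left out. The counts called thus stand on unequal bases. The number called was 35 when library sizes left out the 20 most abundant genes, 80 with no expression filter, 50 with a filter of 1 CPM in 2 libraries and 59 with DESeq2's Wald test. It was 9 with limma-voom, 12 with sample quality weights, 9 with weights per species, 35 from the difference of the fits of each species alone and 9 when tested against 1 log2 unit. Leaving out 1 library gave 14 to 194. Without control 2 and acclimated 1 of D. virilis together, an alternative chosen after seeing the data, it gave 41. The D. montana response had 109 called genes, with 325 under sample quality weights, 169 under weights per species, 65 after thinning, 169 without those 2 D. virilis libraries and 45 to 159 with 1 library left out. The D. virilis response had 239, with 390 under no filter, 149, 82 and 67 under the 3 limma-voom analyses in the same order, 24 fitted alone, 117 without those 2 libraries and 87 to 614 with 1 left out. Genes with an interval within 1 log2 unit numbered 2477, with 1399 without those 2 libraries and 1513 to 2261 with 1 left out. Leaving out 1 D. virilis library leaves a lone library that is assumed to vary like the other groups. The cause of these changes was not tested. For the 18 named genes, 388 alternative tests kept their side of the threshold and 62 lost it; 0 of the 22 called differences changed sign, while the near-0 differences of FBgn0207689 and FBgn0198817 took both signs. The median difference over all genes was 0.02 log2 units with TMM scaling and 0.17 with those library sizes. Group means of named genes under the other scalings were 0.84 to 1.08 times those given. Same-numbered control and acclimated libraries did not deviate together (r of −0.21 to −0.064, and 0 of 3 acclimated D. montana libraries correlated best with the control of their own number). In D. virilis, with 2 libraries per group, numbers 1 and 2 give the same r by construction. So few libraries cannot tell whether same-numbered pools shared a culture. With a replicate block within species the difference called 17 genes, 15 of them among the 22, and the responses 71 in D. montana and 124 in D. virilis. D. virilis had 650517 to 1316804 gene reads a library, from files of 6815826 to 16917956 reads. D. montana had 1518027 to 2235850 gene reads, from files of 5874251 to 9545667 reads. What limits the calls in D. virilis was not tested.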

Other observations

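Of the 109 genes called in D. montana in the shared fit, 91 had the same sign in D. virilis, 5 had a called difference and 19 had an interval of the difference within 1 log2 unit. Of the 239 called in D. virilis, 174 had the same sign in D. montana, 18 had a called difference and 11 had such an interval. Over all tested genes, 42.5% had opposite signs, 0.224% a called difference and 25.2% such an interval. Genes called in 1 species were picked on values that also enter the difference, so the overall shares are no fair yardstick for them.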
